A study of Mus musculus with 6 samples.

Results

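The 10 genes Eef2k, Eef2, Eif4b, Eif4ebp1, Eif4ebp2, Rps6kb1, Mtor, Rptor, Ddit4 and Tsc2, which set the pace of protein synthesis, were followed in D-gal-treated fibroblasts. Eef2k and its substrate Eef2 act on elongation. Eif4b, Eif4ebp1 and Eif4ebp2 act on initiation. Rps6kb1, Mtor and Rptor belong to the mTORC1 kinase branch, and Ddit4 and Tsc2 restrain it. They are 10 of the 34745 genes in the deposited expression table, matched by gene symbol, and all 10 were among the 13407 genes that passed the filter on low counts. The 10 were chosen from earlier results of the same D-gal against control comparison, so their levels and fold changes below are a description and carry no test.

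The cells were NOR-10, a fibroblast line from mouse skeletal muscle. The D-gal group (n = 3) received 20 mg/mL D-galactose for 3 days, a treatment the study used to make the cells senescent, and the control group (n = 3) received PBS. Both groups are the same unmodified line, and the labels do not say whether the replicates were separate cultures, so the p-values measure the spread between these libraries, which may be technical. Library totals were 16876087 to 20830349 counts in controls, against 13759108 to 15157064 under D-gal, without overlap. Normalized counts and fold changes were scaled by TMM over the 6 libraries. FPKM values and shares of counts rest on library totals without TMM. Mitochondrially encoded genes took 4.26% to 4.44% of control counts and 4.87% to 4.98% of D-gal counts. Of 11 fibroblast markers, Lum alone stayed under 1 FPKM (read counts scaled by gene length and library depth) in every library, and the summed level of the 11 was 1750 to 1810 FPKM in controls, against 1120 to 1500 FPKM under D-gal. The muscle cell markers Pax7, Myf5 and Myod1, the leukocyte marker Cd3e, the epithelial marker Epcam and the adipocyte marker Adipoq were at 0 in every library. Other members of those lists were not: Acta1 (muscle), Cd68 (leukocyte) and Cdh1 (epithelial) passed 1 FPKM. The summed levels were 2.29 to 2.76 FPKM (controls) and 1.69 to 1.92 (D-gal) for the muscle cell list, 1.58 to 4.38 and 1.63 to 1.90 for the leukocyte list, and 1.29 to 1.55 and 0.359 to 0.58 for the epithelial list. Acta2, Rgs5, Cspg4 and Myh11, markers of smooth muscle or pericytes, summed to 1200 to 1250 FPKM in controls, against 1640 to 1820 FPKM under D-gal. Cspg4 and Myh11 stayed under 1 FPKM in every library, so this sum comes nearly all from Acta2 and Rgs5. The part of these shifts in the values below was not tested. The RNA came from bulk cultures, so fewer cells making a transcript and less transcript per cell cannot be told apart.

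Translation elongation is slowed when eEF2 kinase, a calcium- and calmodulin-dependent enzyme, phosphorylates elongation factor eEF2 and keeps it off the ribosome. mTORC1, a kinase complex scaffolded by Raptor, responds to growth factors, amino acids and energy. When active it drives S6 kinase, which phosphorylates eIF4B and inhibits eEF2 kinase, and it releases the cap-binding protein eIF4E from the eIF4E-binding proteins. The TSC complex holds mTORC1 back through the small GTPase Rheb, and Ddit4 (also called REDD1) is a stress-induced protein that acts through it. These switches act largely on proteins, by phosphorylation, which transcript counts do not measure.

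The stretches just upstream of the kinase gene Eef2k and of its substrate gene Eef2 are shown because these 2 transcripts lie next to each other in the pathway and both were lower under D-gal. Each is the 250 bases before an annotated start, 5′ to 3′ on the gene's own strand, from RefSeq on GRCm38.p6. The Eef2k stretch is chr7:120842581-120842830 (plus strand) and the Eef2 stretch is chr10:81176381-81176630 (plus strand), and no annotated exon falls inside either. Capitals mark letters found by the motif search.
Eef2k: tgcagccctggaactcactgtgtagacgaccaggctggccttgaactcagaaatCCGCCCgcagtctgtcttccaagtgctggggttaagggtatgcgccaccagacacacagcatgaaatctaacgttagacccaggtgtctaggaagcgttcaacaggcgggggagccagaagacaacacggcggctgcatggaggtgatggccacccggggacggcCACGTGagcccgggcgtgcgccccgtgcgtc
Eef2: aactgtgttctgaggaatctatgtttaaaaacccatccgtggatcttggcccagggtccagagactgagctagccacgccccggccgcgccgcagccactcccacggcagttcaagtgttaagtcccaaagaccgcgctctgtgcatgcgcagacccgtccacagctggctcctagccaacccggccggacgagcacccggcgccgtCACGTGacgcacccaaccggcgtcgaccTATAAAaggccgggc
In all, 6 motifs were searched on both strands: the TATA box (TATAAA), the E-box (CACGTG), the cAMP response element (TGACGTCA), the GC box (GGGCGG), the CCAAT box (CCAAT) and a site of the stress factor ATF4 (TGATGNAAN). Both stretches hold the E-box CACGTG, beginning 31 bases before the Eef2k start and 43 bases before the Eef2 start, and 6.02% of the 32851 mouse stretches of this length hold it. Eef2k also has a GC box (GGGCGG, here on the opposite strand as CCGCCC) beginning 196 bases before its start, a motif found in 32.7% of all stretches. Eef2 has TATAAA beginning 15 bases before its start, found in 12.4%. RefSeq gives Eef2k 2 further starts, whose upstream stretches hold no CACGTG. Of the other genes, Mtor has 4 copies of CCAAT (in 33.8% of all stretches) and 2 GC boxes, Eif4b and Eif4ebp2 have 2 GC boxes each, and Ddit4 has 2 copies of CCAAT and 1 GC box. The Rps6kb1, Rptor and Tsc2 stretches hold none of the 6 motifs, and Eif4ebp1 has no entry in the table. TGACGTCA (in 1.55% of all stretches) occurred upstream of none of the 9 genes with an entry, and TGATGNAAN (in 3.44%) only at the most downstream of the 3 Eef2k starts. A match is a run of letters and says nothing of whether a factor was bound in these cells.

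Eef2k had by far the widest gap between the groups of the 10 genes. Its transcript stood at less than 0.5 of the control level in the D-gal group. Eef2, Eif4b, Eif4ebp1 and Eif4ebp2 were lower by smaller amounts, Ddit4 was higher, and Rps6kb1, Mtor, Rptor and Tsc2 lay within 0.13 of 0 on the log2 scale. In the edgeR fit over all genes, 5 of the 10 lay past an adjusted p of 0.05 on the lower side and 1, Ddit4, on the higher side, where 17.8% and 16.9% of the 13407 genes tested did so, 34.8% together. With a change of at least 2-fold as well, Eef2k was the 1 gene left, against 4.21% of all genes. The 3 control and 3 D-gal libraries did not overlap for 8 of the 10 genes, 7 of them lower and 1 higher under D-gal, against 49.1% of all genes. Since this comparison chose the genes, nothing is read from these counts. The median log2 fold change was -0.15 over the 10 genes and 0.00 over all genes tested.

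**Figure D1:**
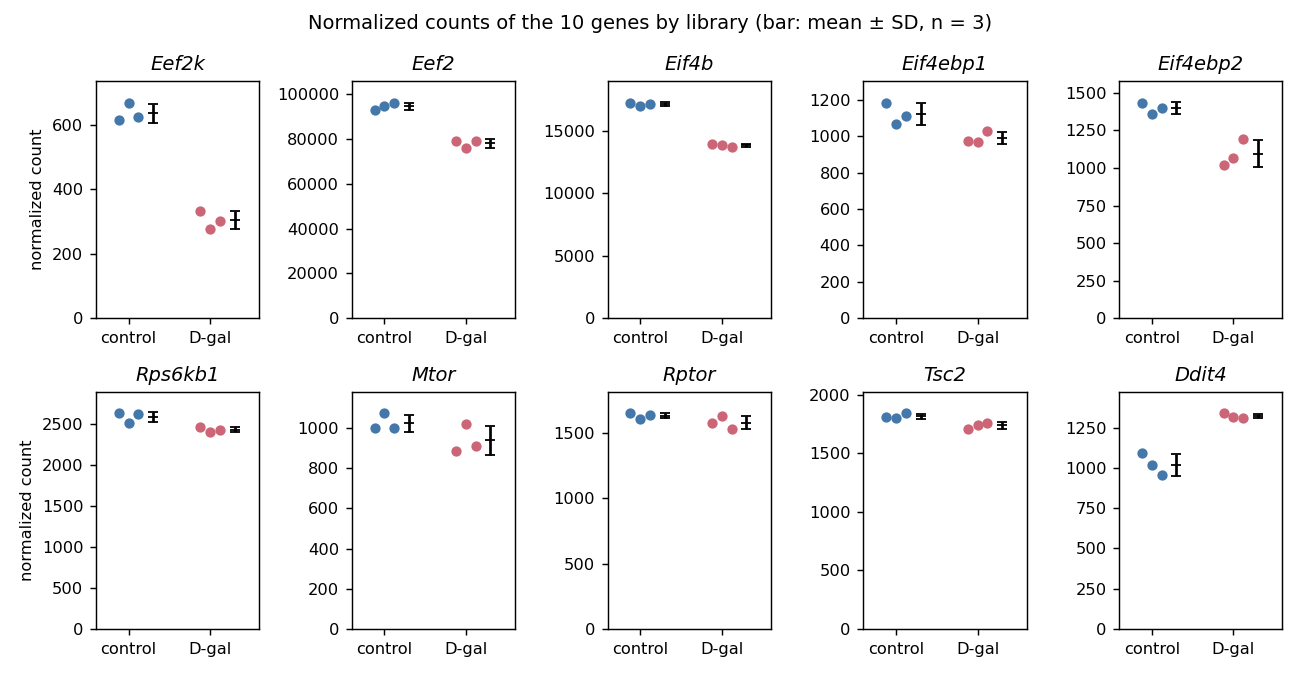
Normalized counts (y axis, from 0, a separate scale for each gene) of the 10 genes in the 3 control and 3 D-gal libraries, each point 1 library, with the mean and SD of each group beside the points. The Eef2k points fall from 613.5 or more in the control group to 333.3 or less in the D-gal group, Ddit4 is the gene whose D-gal points all lie above the control points, and the groups overlap for Mtor and Rptor.

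Eef2k encodes eEF2 kinase and lies on chromosome 7 of GRCm38 (chr7:120842831-120907219, plus strand), with 9 annotated transcripts, 7 of them coding. Its normalized counts were 613.5, 668.3 and 624.1 in the control libraries, against 333.3, 277.4 and 300.0 in the D-gal libraries. The lowest control library was well above the highest D-gal library. The group means were 635.3 ± 29.1 and 303.6 ± 28.1 (SD, n = 3 each), a log2 fold change of -1.07 (SE 0.08), or a level 2.09-fold lower under D-gal. Ordered by fold change from the lowest, Eef2k ranked 239 of 13407 genes, so that 1.78% of genes were at its value or below. Raw counts behind these values were 618 to 819 in controls, against 249 to 297 under D-gal. The log2 fold change was -1.09 when all libraries were thinned to the total of the smallest. An antisense gene, Gm15774, shares 101 exon bases with Eef2k and had 0 counts in every library. The sources used here do not say whether counting used the strand, so reads from such antisense partners cannot be told apart.

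Eef2 (chr10:81176631-81182507, plus strand) encodes the elongation factor that moves the ribosome along the mRNA, and it was the most abundant of the 10 transcripts. Its normalized counts were 92950, 94740 and 96350 in controls, against 79380, 75880 and 79320 under D-gal. All D-gal libraries lay below all control libraries. The means were 94680 ± 1700 and 78190 ± 2000 (SD, n = 3 each), a log2 fold change of -0.28 (SE 0.03), or 0.826 of the control level. Eef2 alone took 0.557% of all control counts and 0.471% of all D-gal counts. Of its 31-base words, 21.2% also occur in other annotated genes, foremost the processed pseudogenes Gm13050 (12.4%) and Gm11400 (6.21%). Neither pseudogene is listed in the deposited table, so part of the Eef2 signal is uncertain.

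Kinase and substrate did not keep their proportion. Per 1000 FPKM of Eef2 there were 2.12, 2.26 and 2.08 FPKM of Eef2k in the control libraries, against 1.35, 1.17 and 1.21 in the D-gal libraries. The ratio was 2.15 ± 0.0974 in controls, against 1.24 ± 0.0912 in the D-gal group (SD, n = 3 each), 0.578 of the control value, without overlap. It is a ratio of transcripts and says nothing of how much eEF2 was phosphorylated.

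Eif4b (chr15:102073773-102097172, plus strand) encodes the cofactor of the eIF4A helicase that is phosphorylated by S6 kinase. Normalized counts were 17270, 16990 and 17180 in controls, against 13930, 13850 and 13740 under D-gal. Replicates were very close to each other, with a coefficient of variation of 0.836% and 0.697%, where the median gene had 6.09% in the control and 6.65% in the D-gal group. Eif4b was lower under D-gal by a log2 fold change of -0.31 (SE 0.02), with means of 17150 ± 143 and 13840 ± 96.5 (SD, n = 3 each). Processed pseudogenes, led by Gm4784 (4.64%), share 31-base words with it.

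Eif4ebp1 and Eif4ebp2 encode the repressors that hold eIF4E until mTORC1 phosphorylates them. Eif4ebp1 (chr8:27260327-27275656, plus strand) had normalized counts of 1185, 1066 and 1110 in controls, against 974.1, 969.7 and 1027 in the D-gal group. Eif4ebp2 (chr10:61432497-61452669, minus strand) had 1435, 1358 and 1399 in controls, against 1023, 1068 and 1193 under D-gal. Neither gene overlapped between the groups, but for Eif4ebp1 the nearest libraries were 1066 and 1027. The log2 fold change was -0.18 (SE 0.06) for Eif4ebp1 and -0.35 (SE 0.06) for Eif4ebp2. Eif4ebp1 is the gene nearest the threshold, and it stayed past it in 6 of 13 alternative analyses. Per library, the FPKM ratio of Eif4ebp1 to Eif4ebp2 was 2.54, 2.42 and 2.44 in controls, against 2.93, 2.80 and 2.65 in the D-gal group, so the balance lay further toward Eif4ebp1 under D-gal. Eif4e, the cap-binding protein they restrain, had 2330 ± 27.4 normalized counts in controls, against 2354 ± 59.1 in the D-gal group (SD, n = 3 each) and was not called (log2 fold change 0.02, edgeR adjusted p = 0.78). The summed FPKM of both repressors relative to Eif4e was 4.80 ± 0.229 in controls, against 4.07 ± 0.195 in the D-gal group (SD, n = 3 each), 0.846 of the control value, again without overlap. The level of this ratio depends on the gene length used. With merged exon lengths from the annotation it was 1.94 in controls and 1.63 in the D-gal group, 0.843 of the control value.

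**Figure D2:**
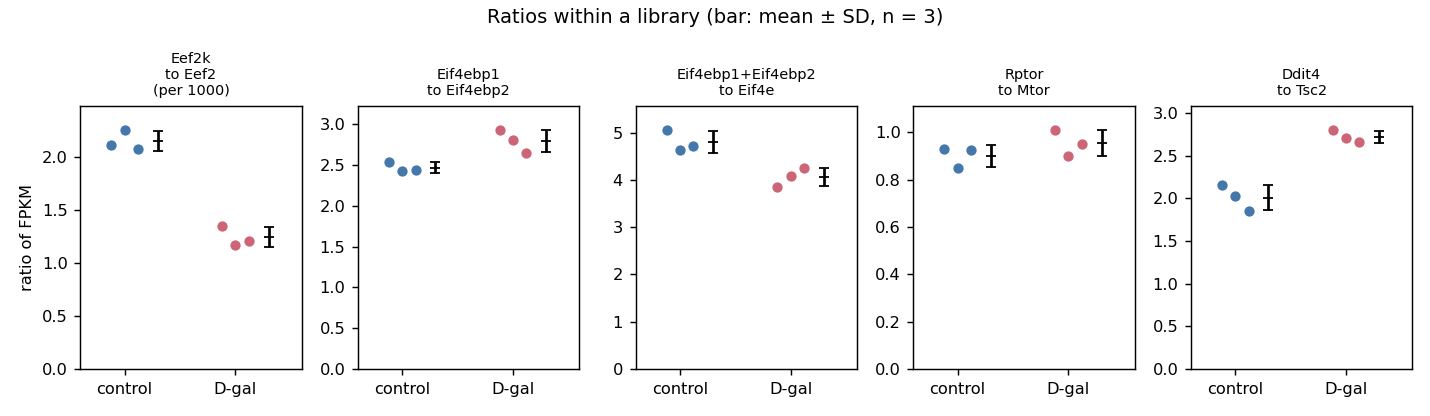
Ratios of FPKM within each library (y axis, from 0, unitless) for 5 ratios, 1 point a library, with mean and SD (n = 3) beside each group. Eef2k per 1000 Eef2 is lower in all D-gal libraries, the repressors relative to Eif4e are lower, Eif4ebp1 to Eif4ebp2 and Ddit4 to Tsc2 are higher, and Rptor to Mtor overlaps between the groups.

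The kinase branch itself moved little. Rps6kb1 (chr11:86498871-86544805, minus strand) encodes S6 kinase and had normalized counts of 2630, 2514 and 2619 in controls, against 2467, 2400 and 2427 under D-gal. The groups did not overlap, yet the log2 fold change was -0.09 (SE 0.03), or 0.94 of the control level, and it was not called. Rnft1, on the opposite strand, shares 155 exon bases with Rps6kb1 and had a log2 fold change of 0.21. Mtor (chr4:148448611-148557683, plus strand), the catalytic subunit of both mTOR complexes, had normalized counts of 1001, 1074 and 999.8 in controls, against 885.5, 1023 and 909.7 in the D-gal group. The second D-gal library lay among the controls, and the log2 fold change was -0.13 (SE 0.07), between -0.19 without that library and -0.08 without D-gal replicate 1. Rptor (chr11:119602905-119899576, plus strand), which encodes the scaffold that brings substrates to mTORC1, had normalized counts of 1651, 1610 and 1638 in controls, against 1577, 1630 and 1529 under D-gal. Its groups overlapped as well, and its log2 fold change was -0.05 (SE 0.04). The ratio of Rptor to Mtor FPKM was 0.901 ± 0.0471 in controls, against 0.951 ± 0.0529 in the D-gal group (SD, n = 3 each), with overlap.

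Among the brakes, Ddit4 and Tsc2 went different ways. Ddit4 (chr10:59949675-59951770, minus strand) had normalized counts of 1091, 1020 and 954.3 in controls, against 1340, 1319 and 1312 under D-gal. Every D-gal library lay above every control library, and the D-gal replicates were the closer together, with a coefficient of variation of 1.09% against 6.69%. The means were 1022 ± 68.4 and 1324 ± 14.4 (SD, n = 3 each), a log2 fold change of 0.37 (SE 0.06), or 1.3-fold higher under D-gal. Tsc2 (chr17:24595937-24632629, minus strand), the subunit of the TSC complex that switches Rheb off, had normalized counts of 1813, 1799 and 1842 in controls, against 1707, 1745 and 1762 under D-gal. Its groups did not overlap, but the log2 fold change was -0.06 (SE 0.03) and it was not called. Tsc2 shares 693 exon bases with Pkd1 on the opposite strand, 7.20% of its exon length, and Pkd1 was the more abundant in counts, with 3472 to 5398 a library and a log2 fold change of -0.08. Relative to Tsc2, Ddit4 stood at 2.01 ± 0.15 in controls, against 2.72 ± 0.074 in the D-gal group (SD, n = 3 each, FPKM ratio), 1.36 times the control value.

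**Figure D3:**
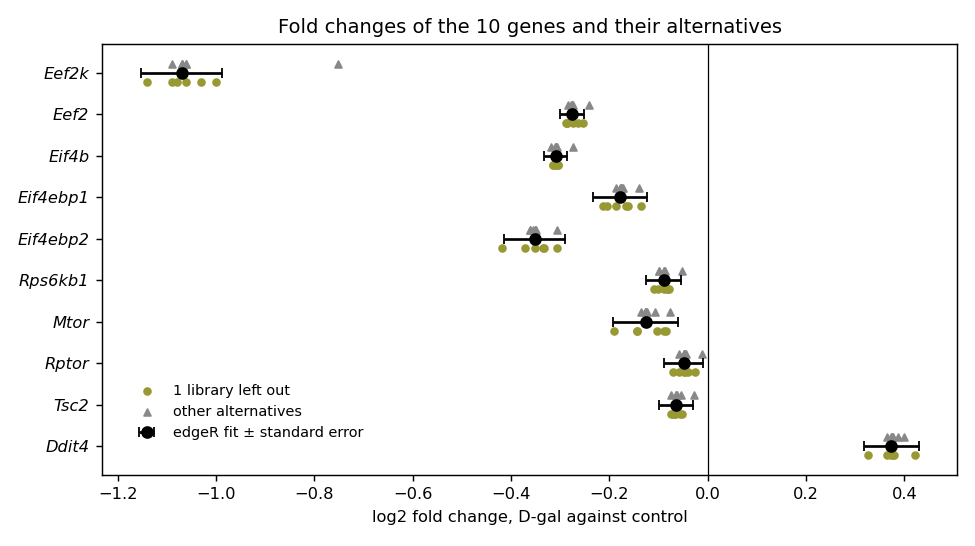
Log2 fold change of each of the 10 genes, D-gal against control (x axis), with the edgeR value and its standard error in black, the values with 1 library left out as dots below it and the other alternatives as triangles above it. No value crosses 0, Eef2k lies between -1.14 and -0.75 throughout, and its value nearest to 0 is the one on log2(FPKM + 1).

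On the FPKM scale, which allows levels of different genes to be compared, the 10 transcripts spanned over 2 orders of magnitude. In the control group the order was Eef2 (1798 ± 28), Eif4b (261.8 ± 2.42), Eif4ebp1 (67.2 ± 3.72), Ddit4 (35.7 ± 2.47), Eif4ebp2 (27.2 ± 0.785), Tsc2 (17.8 ± 0.185), Rps6kb1 (14.1 ± 0.35), Mtor (5.23 ± 0.217), Rptor (4.70 ± 0.0636) and Eef2k (3.87 ± 0.176), all in FPKM with SD (n = 3). In the D-gal group Eef2 stood at 1521 ± 35.4, Ddit4 at 47.3 ± 0.375, Eif4ebp2 at 21.8 ± 1.79 and Eef2k at 1.89 ± 0.169 FPKM (SD, n = 3), and the order was the same. Mtor (4.91 ± 0.399) and Rptor (4.66 ± 0.155) were neighbours that did not differ beyond their spread in the D-gal group. The order depends on the gene length used. The length behind the deposited FPKM was 981 bases for Eif4ebp1 and 20417 for Rptor, whereas the merged exons in the annotation cover 2196 and 13471 bases. With merged exons, Ddit4 (34.2 ± 2.37) came before Eif4ebp1 (30.0 ± 1.66), Rps6kb1 (17.6 ± 0.438) before Eif4ebp2 (14.2 ± 0.41) and Tsc2 (11.1 ± 0.116), and Rptor (7.13 ± 0.0964) before Mtor (5.96 ± 0.248) in the control group, while Eef2 and Eif4b stayed highest and Eef2k (5.04 ± 0.23) lowest.

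**Figure D4:**
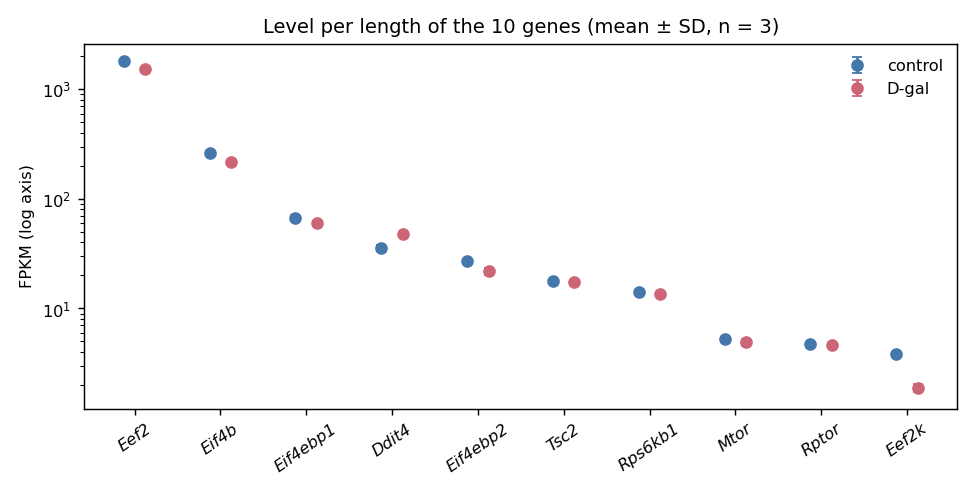
Level per gene length of the 10 genes in FPKM (y axis, log scale) in the control and D-gal groups, points for means and bars for SD (n = 3, mostly smaller than the points). Genes run from Eef2 at 1798 FPKM in the control group on the left to Eef2k at 3.87 FPKM on the right, where the 2 groups are farthest apart.

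The genes whose profile over the 6 libraries was most like that of Eef2k were not translation factors. Likeness was the root mean square difference of log2 CPM (counts scaled by depth), centred on each gene's mean, over 10411 genes with a mean of at least 100 counts. The closest were Adgra2 (0.043), a G protein-coupled receptor, Vdr (0.0563), the vitamin D receptor, Clec11a (0.0605), a secreted lectin, Cd248 (0.0644), the stromal surface protein endosialin, and Steap3 (0.0654), a metalloreductase. Adgra2 had 1815 ± 47.7 normalized counts in controls, against 896.8 ± 76.6 in the D-gal group, and Cd248 had 3153 ± 69.3 and 1392 ± 132 (SD, n = 3 each). The other 9 genes lay much farther from Eef2k, from 0.378 for Eif4ebp2 to 0.726 for Ddit4. This measure largely restates the fold change of the comparison from which the 10 genes were chosen. The closest genes had log2 fold changes between -1.18 (Cd248) and -0.976 (Vdr), near the -1.07 of Eef2k. The distance of the other 9 is therefore no separate result.

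The wider pathway was read from 10 lists of 146 genes written from general knowledge, but with earlier results of these data known, so their shares are a description. None of the 10 genes above is in them, and Eef1a1, Eef1b2, Eef1d, Eef1g and Pabpc1 stand in 2 lists each. Of the 143 listed genes tested, 25 rose and 37 fell at an edgeR adjusted p under 0.05, so 43.4% were called, where 34.8% of all genes tested were. DESeq2 called 18 higher and 30 lower, and the count that rose in edgeR was 16 without control replicate 1 and 16 without D-gal replicate 3. The median log2 fold change was -0.01, and Sesn1 alone passed a log2 fold change of 1 in size. Among all genes tested, 4.21% were called with a change that large, so such changes were rarer in the lists. Called genes thus lay in both directions within most lists. Values named below are normalized counts (mean ± SD, n = 3 each) and log2 fold changes with their SE.

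Of 13 elongation factors, 3 rose, 4 fell and 6 were not called, with a median log2 fold change of -0.06 (53.8% called against 34.8% of all genes). Eef1a1, which delivers aminoacyl-tRNA to the ribosome, had 113600, 120800 and 118800 normalized counts in controls, against 99000, 97390 and 97890 under D-gal. It fell by 0.26 on the log2 scale (SE 0.03, edgeR adjusted p = 0.00018), close to the -0.28 of Eef2. Eef1g, a subunit of its exchange factor, fell by 0.27 (SE 0.03, edgeR adjusted p = 0.00019). Of the 31-base words of Eef1a1 and Eef1g, 51.5% and 47.6% occur in other annotated genes, so both values are uncertain. Eif5a2, a paralogue of the elongation factor eIF5A, had the widest fall, from 354.2 ± 42.2 to 220.4 ± 22.6 (log2 fold change -0.68, SE 0.12, edgeR adjusted p = 0.0029).

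Of 15 genes that modify eEF2 or regulate its kinase, 4 fell, none rose and 11 were not called (median -0.06, 26.7% called against 34.8% of all genes). Those that fell included Calm2 and Calm3, whose product calmodulin binds and activates eEF2 kinase, and Eef2kmt, which methylates eEF2. Calm3 went from 5517 ± 105 to 4373 ± 171 (log2 fold change -0.34, SE 0.04, edgeR adjusted p = 0.00037) and Calm2 from 6811 ± 155 to 5461 ± 150 (-0.32, SE 0.03, edgeR adjusted p = 0.00028). Eef2kmt was at low counts, 83.7, 92.2 and 89.9 in controls, against 64.0, 50.2 and 62.7 in the D-gal group, without overlap. Its log2 fold change was -0.59 (SE 0.15, edgeR adjusted p = 0.017). Of the words of Eef2kmt and Calm2, 22.67% and 18.08% occur in other annotated genes. Eef2kmt shares 615 exon bases with 2 genes on the opposite strand. The values of Eef2kmt and Calm2 are therefore uncertain. None of the 7 tested genes for diphthamide, the modified histidine of eEF2, was called, counting Dnajc24 with the Dph genes named for it.

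Of 19 tested genes of the cap-binding complex eIF4F and its regulators, 2 rose and 5 fell (median -0.03, 36.8% called against 34.8% of all genes). Eif4g3, a scaffold of the complex, had 1806, 2006 and 1857 normalized counts in controls, against 1245, 1259 and 1356 under D-gal, a fall of 0.56 on the log2 scale (SE 0.05, edgeR adjusted p = 0.00019). Its paralogue Eif4g1 was not called (0.14, SE 0.06, edgeR adjusted p = 0.094). Mknk2, a kinase of eIF4E, fell from 1702 ± 76.8 to 1197 ± 54 (-0.51, SE 0.05, edgeR adjusted p = 0.00023), and its paralogue Mknk1 rose (0.36, SE 0.07, edgeR adjusted p = 0.005). Pabpc1, the poly(A)-binding protein, fell by 0.17 on the log2 scale (SE 0.02, edgeR adjusted p = 0.0014).

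Of 10 further subunits and assembly factors of the mTOR complexes, 2 rose, 2 fell and 6 were not called (median 0.08, 40% called against 34.8%). Deptor, an inhibitory subunit of both complexes, had 3199, 3118 and 2993 normalized counts in controls, against 2302, 2244 and 2301 under D-gal. It fell by 0.44 on the log2 scale (SE 0.04, edgeR adjusted p = 9.3e-05). The other 3 called genes belong to mTORC2. Mapkap1 rose from 556.7 ± 22 to 807.3 ± 20.4 (0.54, SE 0.06, edgeR adjusted p = 0.00026). Prr5 fell from 142.8 ± 8.23 to 84.7 ± 10.9 (-0.75, SE 0.13, edgeR adjusted p = 0.0032), while its paralogue Prr5l rose from low counts of 57.9 ± 8.16 to 90.2 ± 11.3 (0.64, SE 0.17, edgeR adjusted p = 0.02).

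Of 13 genes of S6 kinases and of substrates of S6 kinase or mTOR, 2 rose, 3 fell and 8 were not called (median -0.05, 38.5% called against 34.8%). Lpin1, a phosphatidate phosphatase controlled by mTORC1, rose from 838.3 ± 17.8 to 1102 ± 133 (0.40, SE 0.08, edgeR adjusted p = 0.0079). Grb10, an adaptor that dampens insulin signalling, fell by 0.24 on the log2 scale (SE 0.05, edgeR adjusted p = 0.0048), and the kinase Sgk1 fell by 0.12 (SE 0.03, edgeR adjusted p = 0.022). Rps6kb2, the paralogue of Rps6kb1, was not called (-0.08, SE 0.08, edgeR adjusted p = 0.50). None of the 4 genes of the TSC complex and Rheb (Tsc1, Tbc1d7, Rheb and Rhebl1) was called, and their adjusted p in edgeR lay between 0.14 and 0.72.

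Of 18 stress inputs of mTORC1, 6 rose and 2 fell (median 0.03, 44.4% called against 34.8%). Sesn1 encodes a sestrin, a stress-induced inhibitor of mTORC1, and it had the largest change of the 143 genes. Its normalized counts were 597.8, 672.4 and 657.4 in controls, against 1178, 1499 and 1500 under D-gal, a log2 fold change of 1.12 (SE 0.10, edgeR adjusted p = 0.00013). Its paralogues Sesn2 (0.09, SE 0.06, edgeR adjusted p = 0.28) and Sesn3 (0.04, SE 0.06, edgeR adjusted p = 0.71) were not called. Ddit4l, the paralogue of Ddit4, rose from low counts of 23.2 ± 4.26 to 41.1 ± 5.22 (0.83, SE 0.23, edgeR adjusted p = 0.024). Cab39l, a scaffold of the LKB1 kinase, rose (0.45, SE 0.07, edgeR adjusted p = 0.0015), and of the AMPK beta subunits Prkab1 fell (-0.34, SE 0.06, edgeR adjusted p = 0.0025) while Prkab2 rose (0.67, SE 0.15, edgeR adjusted p = 0.0088).

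Of 26 tested genes of amino acid sensing at the lysosome, 5 rose, 5 fell and 16 were not called (median 0.10, 38.5% called against 34.8% of all genes). Fnip2 and Fnip1, partners of folliculin, fell by 0.32 and 0.20 on the log2 scale (edgeR adjusted p = 0.0096 and 0.0072). Rragd, a Rag GTPase, fell from low counts of 57.5 ± 8.93 to 31.9 ± 8.59 (-0.85, SE 0.23, edgeR adjusted p = 0.025). Castor2, of the arginine sensor family, rose by 0.22 (SE 0.04, edgeR adjusted p = 0.0054). Of 15 tested growth factor inputs, 4 rose and 5 fell (median -0.05, 60% called against 34.8%). Pik3r1, the regulatory subunit of PI3-kinase, fell from 3341 ± 64.1 to 2400 ± 61.1 (-0.48, SE 0.04, edgeR adjusted p = 5.3e-05). Phlpp1, a phosphatase of Akt, rose from 775 ± 28.4 to 1052 ± 43.4 (0.44, SE 0.05, edgeR adjusted p = 0.00059). Irs1, the insulin receptor substrate, rose by 0.32 (SE 0.05, edgeR adjusted p = 0.0025), with 30.7% of its words shared with other genes.

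mRNAs with a 5′ terminal oligopyrimidine (TOP) motif are those whose translation depends most on mTORC1, and Eef2 is among them. Of 15 TOP mRNAs other than those of ribosomal proteins, 10 fell, 1 rose and 4 were not called, with a median log2 fold change of -0.15 (73.3% called against 34.8% of all genes). Vim, the filament protein vimentin and also a fibroblast marker, had the widest fall, from 22150 ± 859 to 15700 ± 1050 normalized counts (-0.50, SE 0.05, edgeR adjusted p = 0.00023). The 9 others that fell lay between -0.12 and -0.27 on the log2 scale. Most of them share many words with other annotated genes. The shares were 51.5% for Eef1a1, 47.6% for Eef1g, 29.9% for Hnrnpa1 and 29.4% for Eif3h. Those of Nap1l1, Tpt1 and Pabpc1 were 25.05%, 19.85% and 16.15%. Naca (8.54%), Eif3f (0.346%) and Vim (0.187%) had lower shares. The values of the genes with large shares are uncertain, and so is the 73.3% called in this list. The exception that rose was Eif3e (0.11, SE 0.03, edgeR adjusted p = 0.03). These are levels of mRNA, and how well each was translated was not measured.

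**Figure D5:**
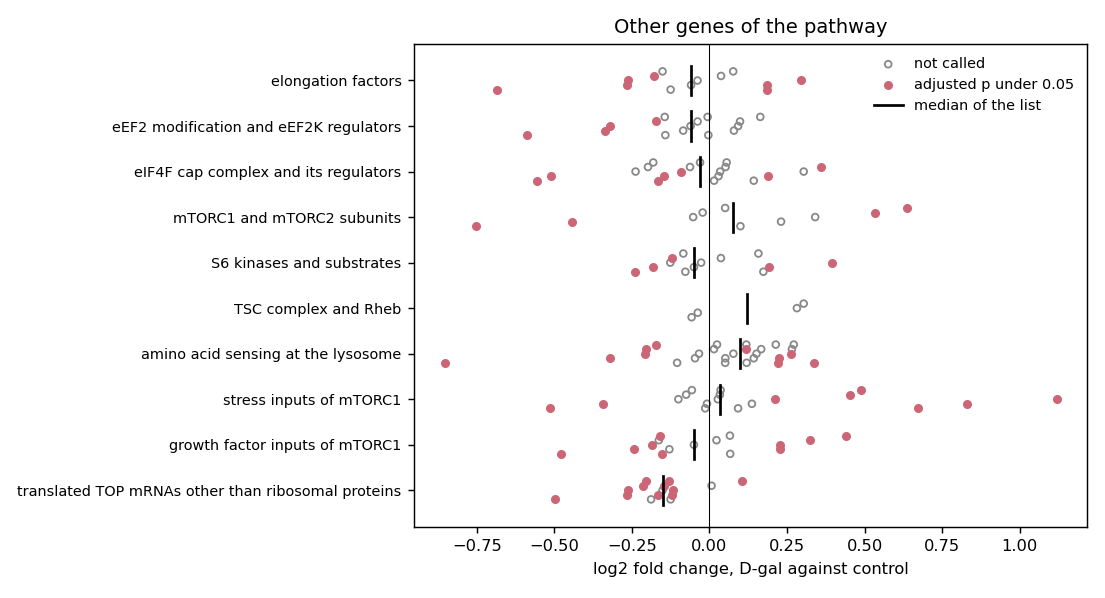
Log2 fold change (x axis, D-gal against control) of every tested gene in the 10 lists of the wider pathway, filled where the edgeR adjusted p was under 0.05, with a vertical bar at the median of each list. Medians lie between -0.15 for the TOP mRNAs and 0.12 for the TSC complex and Rheb, and Sesn1 at 1.12 is the point farthest from 0.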

How the data were processed

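RNA-seq was analysed for 3 control and 3 D-gal libraries of NOR-10 cells, grouped by the sample labels, with dose and duration from the study's methods. Those methods name a kit for small RNA, the labels a general RNA-seq kit, and the library type here follows the labels. Per the methods, the authors used FastQC for read quality and Trimmomatic for trimming. HISAT2 (version 2.0.4) stands in the submitters' processing notes. The counting tool, its use of strand and the genome build are not given in the sources used here, and GRCm38 was inferred from the table's coordinates. The deposited values are read counts per gene, not normalized, and FPKM, which the authors derived from counts, gene length and depth.

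Counts of genes passing filterByExpr (13407 of 34745) were TMM-normalized and tested with edgeR (version 4.0.16, R 4.3.3), quasi-likelihood F-test, Benjamini-Hochberg adjustment over all genes and no covariate. Normalized counts are scaled to the mean effective library size. Genes were called at an adjusted p under 0.05. FPKM served for levels and ratios. Reads are not independent molecules, and depth sets counting error only. Replicates of a group differed beyond counting error (chi-square over degrees of freedom 6.00 to 9.42), so none was a duplicate. All sample columns were matched by name.

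The 10 genes and the gene lists were chosen with earlier results of these data known. Named from each list were the 3 called genes with the smallest p, the called gene with the largest fold and every called gene whose log2 fold change was 1 or more in size. Other listed genes (Eif4e, Eif4g1, Mknk1, Prr5l, Rps6kb2, Sesn2, Sesn3, Ddit4l, Prkab2 and Eif3e) were named after their values were seen, and 1 called gene is not reported here by name. Of 146 listed genes, 5 were matched by gene identifier under an older symbol, and Eif4ebp3, Rragb and Inpp5d did not pass the filter. Shared words are the percent of 31-base words of a gene that other genes of GENCODE M21 (GRCm38) hold. Upstream sequences are from RefSeq, with 9 of the 10 genes matched. The alternatives were RLE size factors, DESeq2 (version 1.42.0), no filter, at least 10 counts in every library, a replicate block, thinning, limma (version 3.58.1) on log2(FPKM + 1) with a pseudocount of 1, each library left out in turn, an adjusted p under 0.01, and merged exon lengths. The code was tested on simulated data.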

Additional observations from a re-analysis of the deposited data

How the results depend on the processing

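The log2 fold changes of the 10 genes kept their sign in all 13 alternatives. Of the 130 values, 124 lay within 1 SD of the replicates and 6 moved further, all of them on log2(FPKM + 1). Eef2k was at -0.75 there, on a scale that understates the change of low genes, and between -1.14 and -1.0 with 1 library left out. Abundant genes moved on log2(FPKM + 1) too, Eef2 from -0.276 to -0.242 and Eif4b from -0.309 to -0.273. FPKM also carries no TMM scaling, and its part in these moves was not tested. Of the wider pathway genes, 11 rose and 22 fell at an adjusted p under 0.01. The share of all genes at that threshold was not counted, so these counts cannot be set against it. With 1 library left out, 16 to 19 rose and 27 to 31 fell. The lowest count that rose, 16, came without control replicate 1 and without D-gal replicate 3. The count of all genes called was 3651 to 4660 over the alternatives, against 4661. Merged exon lengths moved levels and ratios, as given for the order of the genes (Eef2k per 1000 Eef2 became 3.01 and 1.74), but left the D-gal to control ratio at 0.578.

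The labels give same-numbered replicates of the 2 groups no link beyond the number. The correlations of their deviations from the group means were -0.01, 0.00 and 0.03. No shared deviation was visible, but this does not tell whether they were prepared together. With the replicate number as a block, 18 listed genes rose and 32 fell, 3982 of all genes were called, and Eif4ebp1 was no longer past the threshold. The groups of Mtor and Rptor overlapped, and a difference between them was not detectable at this depth with 3 libraries a group.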

Other observations

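Akt1s1 and Eif4h were among the listed genes with a wide spread between replicates, and both were noticed after their values were seen. Akt1s1, which encodes the mTORC1 inhibitor PRAS40, had normalized counts of 1250, 646.3 and 1631 in the control libraries, against 1523, 2116 and 808.5 in the D-gal libraries. Eif4h, a helicase cofactor related to Eif4b, had means of 7031 ± 1310 and 6201 ± 1340 normalized counts (SD, n = 3 each). Neither was called in edgeR (adjusted p = 0.54 and 0.48), and their spread leaves a change of the size seen in Eif4b undetectable for them.

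Rps6, the ribosomal protein that gives S6 kinase its name, had only 270.2 ± 21.1 normalized counts in controls, against 304.6 ± 15.8 in the D-gal group (SD, n = 3 each), fewer than Eef2k in the control group. Of its 31-base words, 45.0% occur in other annotated genes, so its count is uncertain; it too was noticed after its values were seen.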
